A study of Mus musculus with 4 samples.

Results

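The glycolysis genes described here are 10 genes chosen by name, of 17561 genes in the expression table: Slc2a1, Hk2, Gpi1, Pfkp, Aldoa, Tpi1, Pgk1, Pgam1, Eno1 and Ldha. Each symbol matched 1 main Ensembl identifier, and all 10 genes had at least 100 captured transcripts, counted by molecular identifier (UMIs), over all cells, from 335 for Hk2 to 74434 for Ldha. The genes were measured in CD8+ T cells sorted from the BM of myeloma-bearing mice 4 weeks after SCT, by 10x single-cell sequencing of transcript 5′ ends with paired TCR sequencing. The study asked how blockade of TIGIT, an inhibitory receptor on T cells, and the immunomodulatory drug lenalidomide, given alone or together, altered these cells.

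Recipients were young adult female mice on a C57BL/6 background, either WT or CRBN transgenic. CRBN-transgenic mice carry a modified cereblon through which lenalidomide can act. All 4 groups received genetically matched BM together with T cells and by the labels were given different agents: isotype antibody (cIg) with vehicle, αTIGIT with vehicle, cIg with lenalidomide, or αTIGIT with lenalidomide. Antibody was given from the day of transplant, lenalidomide or vehicle from day 14, and cells were harvested on day 28. Each group was 1 library of 5 pooled mice, and the labels do not say which of the genotypes each pool held. The cell table numbers the libraries 1 to 4, and no label ties a number to a treatment. The treatments were therefore not compared, and each value is given for the 8 clusters named by the authors, by library number.

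Glycolysis is the chain of cytosolic reactions that turns glucose into pyruvate and yields ATP without oxygen. Resting naive T cells run it slowly, whereas activated T cells take up more glucose, make lactate from much of it even when oxygen is present, and draw carbon for nucleotides, serine and lipids from its intermediates. Known drivers of its genes include the transcription factor Myc and Hif1a, the oxygen-regulated subunit of hypoxia-inducible factor.

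The table held 11754 cells and 106039690 UMIs, with 1725 to 4237 cells and a median of 7115 to 7669 UMIs per cell in each library, and 56 barcodes occurred in more than 1 library. Cells were kept by the authors only with Cd3e or Cd3g and Cd8a RNA, so CD8 markers could not be low in any cluster. Defining CD4 T cell genes summed to at most 3.99 CPM in a cluster, where CPM are UMIs of a gene scaled to the same total in every group of cells. A list of 10 proliferation genes summed to 3540 CPM in the cycling cluster and to between 129 and 532 CPM in the other clusters. A naive list stood at 1481 CPM in naive (Tn) cells, against 171 to 683 CPM elsewhere, and an exhaustion list at 2397 CPM in TIM-3+ Tex cells, against 85.7 CPM in Tn cells. In GzmA+ Tex cells the macrophage list reached 1823 CPM, against 23.2 to 277 CPM in the other clusters, so that cluster also carried RNA of another cell type. Member ratios printed for the pooled Teff and Tex clusters against cycling or Tn cells are given with and without it. The later split of the pooled clusters by proliferation list includes it throughout. The smallest group of cells from 1 cluster and library was the TIM-3+ Tex cells of library 3, with 31 cells.

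Tpi1, Pgk1 and Ldha, the members with the closest profiles by Pearson's r across clusters and libraries, are encoded on chromosomes 6, X and 7 of the mouse genome (GRCm38). Their protein-coding genes span chr6:124810586-124814296 on the minus strand, chrX:106187100-106203699 on the plus strand and chr7:46841475-46855627 on the plus strand. Their RefSeq promoter sequences (GRCm38.p6) are printed because these genes were highest together in cycling cells. The lines run 5′ to 3′ toward the transcription start. They cover chr6:124814297-124814408 (minus strand) for Tpi1, where bases nearer the start were left out because they overlap an annotated Tpi1 exon. They cover chrX:106186850-106187099 (plus strand) for Pgk1 and chr7:46845554-46845803 (plus strand) for Ldha. Capitals mark the letters ACGTG and GCGTG, the core forms of hypoxia-response elements, on either strand, and the E-box CACGTG, which contains ACGTG on both strands.
Tpi1: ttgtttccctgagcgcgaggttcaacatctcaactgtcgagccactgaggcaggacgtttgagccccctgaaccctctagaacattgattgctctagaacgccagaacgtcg
Pgk1: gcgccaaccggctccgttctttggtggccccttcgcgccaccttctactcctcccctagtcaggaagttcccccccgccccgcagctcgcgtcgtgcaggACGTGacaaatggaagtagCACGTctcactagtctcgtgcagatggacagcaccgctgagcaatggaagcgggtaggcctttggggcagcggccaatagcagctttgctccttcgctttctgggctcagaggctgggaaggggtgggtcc
Ldha: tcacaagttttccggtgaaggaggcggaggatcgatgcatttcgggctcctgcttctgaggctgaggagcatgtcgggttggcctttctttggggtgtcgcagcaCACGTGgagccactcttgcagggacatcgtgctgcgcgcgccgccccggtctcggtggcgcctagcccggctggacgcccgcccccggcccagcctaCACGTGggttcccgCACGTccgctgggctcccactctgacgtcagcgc
In the 250 bases before the start, the printed Ldha promoter held ACGTG 5 times counted over both strands, including 2 copies of CACGTG. It is 1 of 2 RefSeq promoters of Ldha, both inside the annotated gene span, and the other (chr7:46846832-46847081) held GCGTG once and neither of the other motifs. Pgk1 held ACGTG 2 times, and Tpi1 held none of the 3 motifs. Over all 15 RefSeq promoters of the 10 genes, 7 held ACGTG, 7 held GCGTG and 1 held CACGTG, while ACGTG was present in 16.6%, GCGTG in 28.2% and CACGTG in 6.02% of 32851 promoters of the same length. Some promoters of Aldoa and of Eno1 overlap and share a site. Counted by gene, 6 of 10 members held ACGTG, 5 held GCGTG and 1 held CACGTG. The shares over 27025 genes were 18.5%, 30.9% and 6.86%. These matches describe letters only.

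The 10 genes did not move together across the CD8+ T cell clusters. Summed over all 10, their level was 2125 CPM in Tn cells, 2150 CPM in central memory (Tcm) cells, 2508 CPM in TIM-3+ Tex cells and 3020 CPM in cycling cells. The cycling sum was 2603 to 3150 CPM in single libraries against 2022 to 2213 CPM in Tn cells. Ldha weighs most in this sum, with 562 CPM of it in Tn and 1014 CPM in cycling cells. Tpi1, triose phosphate isomerase, had the widest range, with 77.5 CPM in Tn and 239.5 CPM in cycling cells, a span of 3.09-fold. Gpi1, the isomerase that acts on glucose-6-phosphate, had the narrowest, from 354 CPM in TIGIT+ Teff to 444 CPM in TIM-3+ Tex cells, or 1.25-fold. Among 4075 genes with at least 50 CPM in a cluster and UMIs in every cluster, the median span was 1.99-fold and 49.4% reached 2-fold. Of the 8 members in that set all but Tpi1 had a span below the median. Because each treatment was 1 library and the clusters were made from the same counts, no test was run, and the intervals given for levels, ratios and shares are 95% intervals that cover counting error only.

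**Figure D1:**
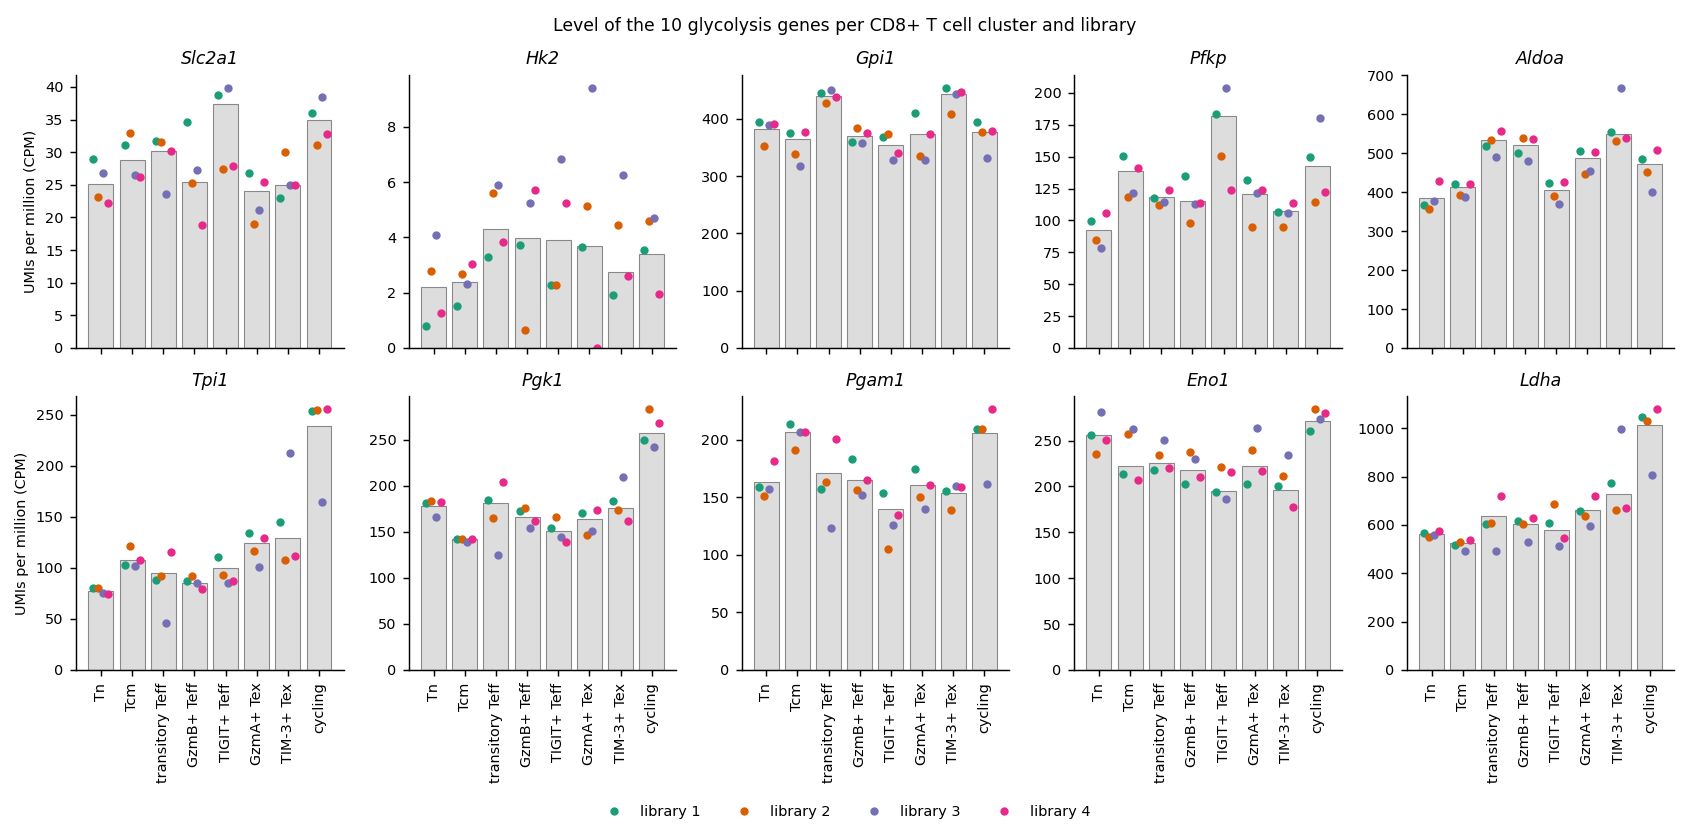
Level of each of the 10 glycolysis genes (CPM, vertical axis, separate scale per gene) in the 8 CD8+ T cell clusters, with grey bars for the value over all cells and 1 point per library. Tpi1 and Ldha stand highest in the cycling cluster in libraries 1, 2 and 4, whereas Gpi1 differs little between clusters.

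Of the genes for the early steps, Slc2a1 and Hk2 were sparse. Slc2a1, the glucose transporter GLUT1, had 28.9, 23.2, 26.8 and 22.2 CPM in Tn cells of libraries 1, 2, 3 and 4 and 36.1, 31.2, 38.4 and 32.8 CPM in cycling cells. It was higher in cycling cells of each library, and the libraries of the 2 clusters did not overlap. The level over all libraries was highest in TIGIT+ Teff cells at 37.4 CPM, with 38.8, 27.4, 39.9 and 27.9 CPM by library. All neighbours in the order of its 8 cluster levels had overlapping intervals. Hk2, the inducible hexokinase that traps glucose in the cell, stayed between 2.20 CPM in Tn and 4.31 CPM in transitory Teff cells, with single libraries from 0 to 9.42 CPM. After each cell was thinned to 2500 UMIs, Hk2 was seen in 0.298% to 1.47% of the cells of a cluster, in the same range as the 0.373% to 1.75% for S100a8, a neutrophil gene that T cells do not express. A match with the share of another gene can neither show nor exclude expression of Hk2, so its ratios are given with this limit.

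Gpi1 and Aldoa, the aldolase that splits fructose-1,6-bisphosphate, were abundant and were not highest in cycling cells. Gpi1 was 395, 352, 389 and 391 CPM in Tn cells of libraries 1 to 4 and 394, 376, 331 and 378 CPM in cycling cells, a log2 ratio of -0.02 (-0.07 to 0.03). Its level was higher in transitory Teff cells, at 445, 428, 451 and 438 CPM, above each library of the Tn cells. Aldoa was likewise higher in transitory Teff than in cycling cells of each library, with 366, 358, 378 and 428 CPM in Tn cells, 519, 534, 490 and 558 CPM in transitory Teff cells and 486, 451, 401 and 507 CPM in cycling cells. Its level in TIGIT+ Teff cells was 422, 390, 370 and 425 CPM, below the transitory Teff cells of each library.

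Pfkp, the platelet form of phosphofructokinase, which commits sugar to glycolysis, had a profile of its own. It was lowest in Tn cells of every library, at 99.7, 84.7, 78.2 and 106 CPM. The highest level was in TIGIT+ Teff cells, at 184, 150.5, 204 and 124 CPM in libraries 1 to 4, and it was the highest of the 8 clusters in 3 of the 4 libraries. Tcm cells had 150.4, 118, 121 and 141 CPM, and cycling cells 150, 115, 180 and 122 CPM. TIGIT+ Teff and Tn cells did not overlap between libraries, whereas library 4 showed no excess of TIGIT+ Teff over transitory Teff cells, each with 124 CPM.

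Among the genes for the later steps, Tpi1, which interconverts the triose phosphates, differed most between clusters. It was 80.1, 80.3, 75.6 and 74.8 CPM in Tn cells of libraries 1 to 4. In cycling cells it was 254, 255, 164 and 255 CPM, above every library of the Tn and Tcm cells. The cycling cluster was highest in libraries 1, 2 and 4. In library 3 the 31 TIM-3+ Tex cells had 212.5 CPM, more than the 164 CPM of its cycling cells, and its transitory Teff cells had only 45.7 CPM, against 88.1 to 116 CPM in the other libraries. In the cycling cells of library 3 the proliferation list was 4863 CPM, against 3054 to 3484 CPM in the other libraries, and the median mitochondrial share was 2.23%, against 1.65% to 1.83%. The part of these differences in the lower Tpi1 level was not tested.

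Pgk1, phosphoglycerate kinase, which makes the first ATP of the pathway, was highest in cycling cells in each of the 4 libraries. It stood at 249, 283, 242 and 269 CPM in cycling cells of libraries 1 to 4, against 181, 184, 166 and 183 CPM in Tn cells. Its lowest level over all libraries was in Tcm cells, at 142, 143, 139 and 142 CPM, so the libraries of the 3 clusters did not overlap. Tcm cells were the lowest of the 8 clusters in 2 of the 4 libraries, and transitory Teff cells of library 3 had 125 CPM. Of the 50-base windows over whole Pgk1, Eno1 and Pgam1 transcripts, 68.0%, 49.5% and 41.5% also occur in other genes, so their levels may be less certain. Windows at the sequenced 5′ ends were not counted apart. Pgam1, the mutase of the next step, was as high in Tcm cells (214, 191, 206 and 206 CPM) as in cycling cells (209, 209, 162 and 226 CPM), and lowest over all libraries in TIGIT+ Teff cells at 140 CPM. Eno1, the enolase, was 256, 236, 281 and 250.5 CPM in Tn cells and 260, 284, 274 and 281 CPM in cycling cells, which overlapped. It was lower in TIM-3+ Tex cells, at 200, 211, 234 and 178 CPM, below the Tn cells of the same library in each case.

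Ldha, the lactate dehydrogenase subunit that favours lactate formation, was 565, 549, 557 and 575 CPM in Tn cells of libraries 1 to 4 and 1048, 1031, 805 and 1078 CPM in cycling cells. No other cluster reached the cycling level of its library except the TIM-3+ Tex cells of library 3, at 997 CPM. In the other 3 libraries TIM-3+ Tex cells had 775, 660 and 670 CPM. Tcm cells had the lowest level over all libraries, at 524 CPM.

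Cycling cells were compared with Tn cells first, since the transcripts of glycolysis are known to accompany proliferation. Tpi1 was 3.09-fold higher in cycling cells, a log2 ratio of 1.63 (1.52 to 1.73), and the ratio was 1.66, 1.67, 1.12 and 1.77 in libraries 1 to 4. Ldha followed with 0.85 (0.81 to 0.89), Pfkp with 0.62 (0.52 to 0.72), Pgk1 with 0.53 (0.46 to 0.60) and Slc2a1 with 0.47 (0.28 to 0.67), each higher in 4 of 4 libraries. Pgam1 was at 0.34 (0.26 to 0.41), Aldoa at 0.30 (0.25 to 0.35) and Eno1 at 0.08 (0.02 to 0.15). Only Tpi1 met the call of at least 2-fold with the same direction in each library. That was 1 of 10 members, against 18.8% of the 10991 genes with at least 100 UMIs called higher, and 0 of 10 were called lower, against 4.59%. The median log2 ratio was 0.50 over the members and 0.36 over all genes tested. Scaling by TMM factors lowered all ratios of this comparison by 0.36 and left Tpi1 at 1.27, Ldha at 0.49, Pfkp at 0.26 and Pgk1 at 0.17, while Aldoa (-0.06), Pgam1 (-0.03) and Eno1 (-0.28) turned below 0. The share of all calls that were higher moved from 80.4% to 59.5% with that scaling. Cycling cells held a median of 13960 UMIs, against 7834 in Tn cells, so a level in CPM is a share of a larger total there.

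Tpi1 and Ldha again had the highest ratios when cycling cells were set against the pooled 5 Teff and Tex clusters, while the order of the other members differed. There TMM scaling moved ratios by less than 0.01. Tpi1 was 2.24-fold higher, at a log2 ratio of 1.16 (1.11 to 1.22) and 1.12, 1.35, 0.94 and 1.23 by library. Ldha was at 0.65 (0.62 to 0.67), Pgk1 at 0.60 (0.55 to 0.64), Pgam1 at 0.37 (0.31 to 0.42) and Eno1 at 0.35 (0.31 to 0.40), each higher in all 4 libraries. Gpi1 (-0.11, -0.15 to -0.08) and Aldoa (-0.10, -0.14 to -0.07) were lower in all 4. All 5 members from Tpi1 onward in the pathway were thus higher in cycling cells. Of the earlier ones, Slc2a1 at 0.30 (0.17 to 0.42) and Pfkp at 0.19 (0.13 to 0.25) were also higher in 4 of 4 libraries. Only Tpi1 met the 2-fold call, 1 of 10 members against 5.54% of all genes called higher, and 0 of 10 were called lower against 2.67%. The members' median was 0.33 and that of all genes tested was -0.01. Without GzmA+ Tex cells Tpi1 was at 1.21, Ldha at 0.65, Pgk1 at 0.59, Pgam1 at 0.37 and Eno1 at 0.37. Slc2a1 was then at 0.26, Pfkp at 0.18, Gpi1 at -0.13 and Aldoa at -0.11.

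**Figure D2:**
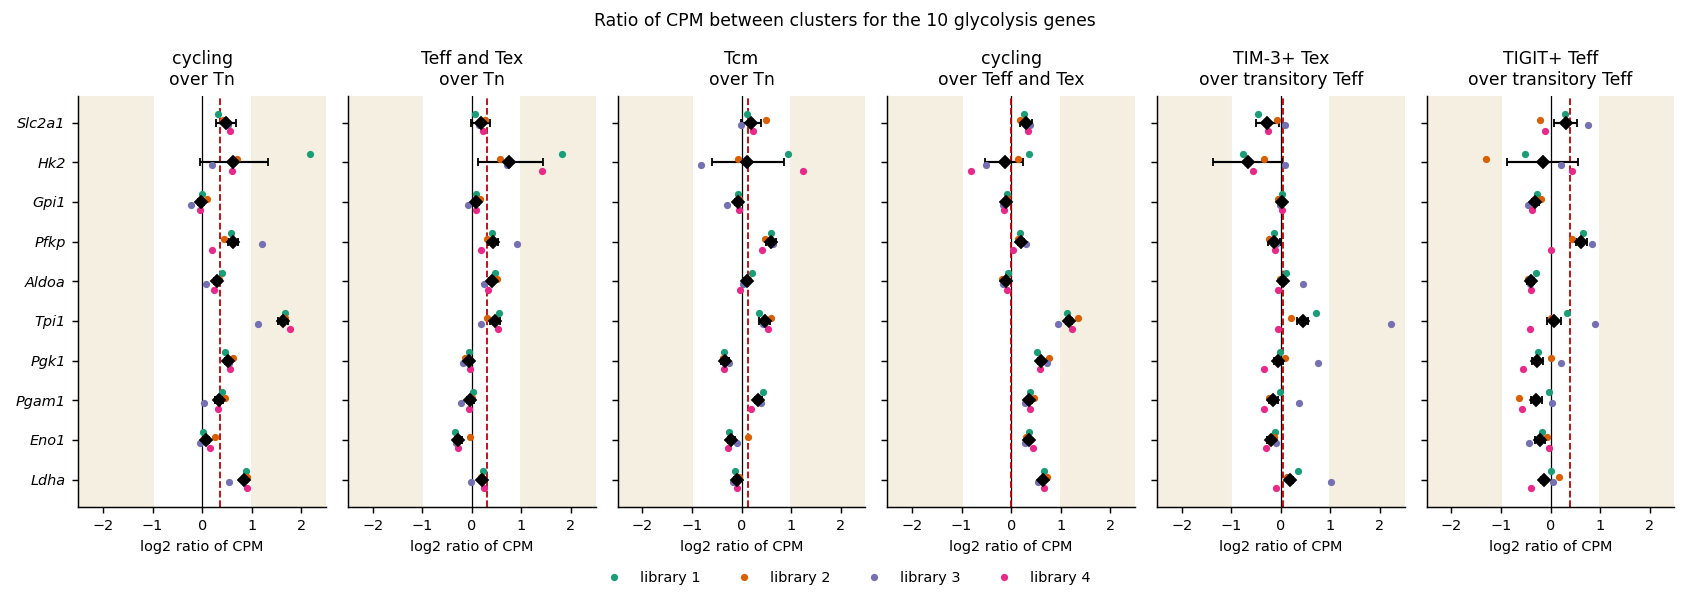
Log2 ratio of CPM of each glycolysis gene in the 6 comparisons of clusters. Diamonds are ratios over all libraries with 95% counting intervals, coloured points are single libraries, the dashed line is the median of the 10991 genes tested, and shading marks ratios beyond 2-fold. Tpi1 lies beyond 2-fold in both comparisons with cycling cells, and the other members lie within it over all libraries.

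In Teff and Tex clusters the summed members were at a log2 ratio of 0.16 over Tn cells, against 0.51 for cycling cells. With TMM scaling these ratios were -0.15 and 0.14. In CPM, Aldoa, Eno1, Gpi1 and Hk2 differed more from Tn cells in the Teff and Tex clusters than in cycling cells. Over the 5 Teff and Tex clusters, Tpi1 was at a log2 ratio of 0.47 (0.36 to 0.57), Pfkp at 0.43 (0.34 to 0.53) and Aldoa at 0.40 (0.35 to 0.45) over Tn cells, each higher in 4 of 4 libraries. Hk2 had the highest ratio, at 0.76 (0.13 to 1.44) and above 0 in 4 of 4 libraries. It rested on 335 UMIs in all clusters and a share of cells as low as that of S100a8. Ldha was at 0.21 (0.17 to 0.25), in 3 of 4. Eno1 was lower, at -0.27 (-0.33 to -0.21), in 4 of 4. None of the 10 members met the 2-fold call in either direction, against 13.5% of genes called higher and 1.82% called lower, and the members' median of 0.19 was below the 0.31 of all genes tested. TMM scaling lowered these ratios by 0.30, which turned Ldha to -0.10, Gpi1 from 0.09 to -0.22 and Slc2a1 from 0.18 to -0.13, and moved the share of calls that were higher from 88.1% to 72.1%. Without GzmA+ Tex cells Tpi1 was at 0.42, Pfkp at 0.44, Aldoa at 0.41, Hk2 at 0.76 and Ldha at 0.20. Eno1 was then at -0.28, Gpi1 at 0.11 and Slc2a1 at 0.21.

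Tcm cells differed from Tn cells in both directions. Pfkp was higher, at 0.59 (0.48 to 0.69), as were Tpi1 at 0.47 (0.36 to 0.58) and Pgam1 at 0.34 (0.26 to 0.42), in 4 of 4 libraries each. Pgk1 was lower, at -0.33 (-0.41 to -0.25), in 4 of 4 libraries, and Ldha was at -0.10 (-0.14 to -0.06), also lower in 4 of 4. The sum of the 10 genes was nearly equal, at 0.02 (-0.01 to 0.04). No member met the 2-fold call, against 5.5% of genes called higher and 1.97% called lower, and the median was 0.11 for the members and 0.13 for all genes tested. Assigning cells by the deposited cluster number, which points to another name for 7.12% of the cells, left Tpi1 at only 0.05 here.

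Among the effector states, TIM-3+ Tex cells, the terminally exhausted state, were compared with transitory Teff cells. Tpi1 was at 0.44 (0.33 to 0.55), but at 0.72, 0.21, 2.22 and -0.05 in libraries 1 to 4, so the libraries did not share a direction. Ldha was at 0.19 (0.14 to 0.24), with 0.36, 0.12, 1.02 and -0.10 by library. For both genes the highest ratio was that of library 3 with its 31 TIM-3+ Tex cells. Leaving out library 1, 2, 3 or 4 in turn put Tpi1 at 0.24, 0.48, 0.33 and 0.74. The same left Ldha at 0.08, 0.20, 0.13 and 0.36. No member met the 2-fold call, against 1.71% of genes called higher and 1.97% called lower, and the median was -0.09 for the members and 0.05 for all genes tested.

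In TIGIT+ Teff against transitory Teff cells, 9 of the 10 members lay below the median of all genes tested. Pfkp was higher, at 0.62 (0.51 to 0.74) and 0.65, 0.43, 0.84 and 0.00 by library. Aldoa at -0.40 (-0.47 to -0.33) and Gpi1 at -0.31 (-0.38 to -0.24) were lower in 4 of 4 libraries. The members' median was -0.18, whereas the median of all genes tested was 0.39, and none of the 10 met the 2-fold call, against 15.9% of genes called higher and 0.637% called lower. In CPM Pgk1 was at -0.27, with -0.26, 0.01, 0.21 and -0.55 by library. Pgam1 was at -0.29, with -0.03, -0.64, 0.03 and -0.58, so for neither gene did the libraries share a direction. Eno1 was at -0.21, below 0 in each library. Libraries 2 and 4 held only 50 and 59 TIGIT+ Teff cells. TMM scaling lowered these ratios by 0.39, which took Pfkp to 0.24, Aldoa to -0.79, Gpi1 to -0.70, Pgam1 to -0.68, Pgk1 to -0.65 and Eno1 to -0.59. It moved the share of calls that were higher from 96.2% to 73.4%. In this comparison the log2 ratio of a gene went with its length on the genome, with Spearman's rho of 0.48 over 10973 genes that share the same libraries. Pfkp is the longest member at 69.0 kb, while Aldoa has 5.5 kb and Tpi1 3.7 kb. The median mitochondrial share of UMIs was 2.87% in TIGIT+ Teff and 1.67% in transitory Teff cells. The part of length and mitochondrial share in these ratios was not tested.

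The other genes of the pathway were read from lists chosen with earlier results of these data known. Values are given for genes that reached 50 CPM in a cluster. Of 16 further glycolysis genes tested, 3 met the 2-fold call in cycling over Tn cells and none was called lower, with a median of 0.56. Over all genes tested 18.8% were called higher and 4.59% lower in this comparison, at a median of 0.36, so 3 of 16 is a share like that of any gene. Gapdh, which oxidizes the triose phosphate that Tpi1 supplies, was 355 CPM in Tn and 860 CPM in cycling cells, a log2 ratio of 1.28 that was higher in 4 of 4 libraries. Pkm, pyruvate kinase, was 308 and 663 CPM, a ratio of 1.10 in 4 of 4 libraries. The other gene called was Minpp1, at 1.02. Minpp1 and the further genes under 50 CPM in the next paragraphs were named after their values were seen, as members of small counts. Hk1, the constitutive hexokinase, was 36.1 CPM in Tn and 65.9 CPM in cycling cells, but highest in TIGIT+ Teff cells at 103 CPM. Slc2a3, the glucose transporter GLUT3, was also highest there, at 64.7 CPM against 22.8 CPM in transitory Teff cells, higher in 4 of 4 libraries.

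**Figure D3:**
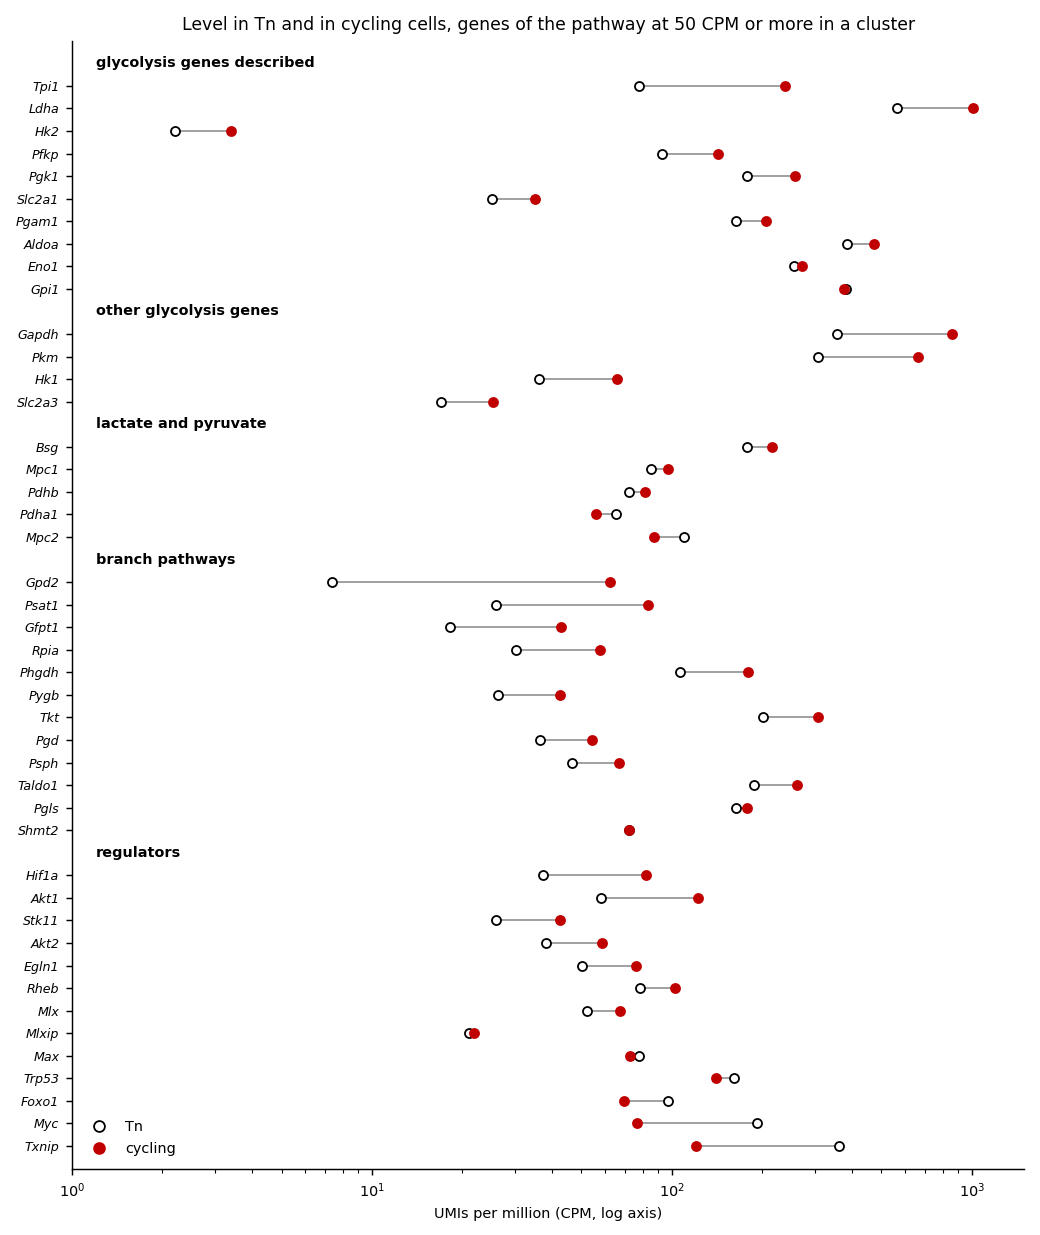
Level (CPM, log axis) of the glycolysis genes and of listed pathway genes with at least 50 CPM in a cluster, in Tn cells (open points) and cycling cells (red points) over all libraries. Gapdh, Pkm, Tpi1 and Ldha were higher in cycling cells, Gpi1 and Eno1 nearly level in CPM (-0.38 and -0.28 on the log2 scale with TMM factors), and Myc and Txnip lower.

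Pathways that branch from glycolysis had 4 of 20 tested genes called higher and 1 called lower in cycling over Tn cells, again close to the 18.8% and 4.59% of all genes. Psat1, an enzyme of serine synthesis from a glycolytic intermediate, was 26.0 and 83.5 CPM, at a log2 ratio of 1.69. Gpd2, the mitochondrial glycerol phosphate dehydrogenase, was 7.34 and 62.2 CPM, at 3.08. Gfpt1, which starts hexosamine synthesis, was 18.3 and 42.9 CPM, at 1.23. Shmt1, a folate enzyme that uses serine, was called higher at 1.09, and Gys1, glycogen synthase, was called lower at -1.17. Phgdh, the first enzyme of serine synthesis, was at 107 and 179 CPM and Tkt, the transketolase of the pentose phosphate pathway, at 202 and 308 CPM. Both were below the 2-fold call but higher in 4 of 4 libraries.

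Genes for the fate of pyruvate and lactate had 2 of 13 tested called higher and 2 lower, against 18.8% and 4.59% of all genes, with a median of 0.18 against 0.36. Slc16a3, the lactate exporter MCT4, was 0.917 CPM in Tn and 14.4 CPM in cycling cells, at 3.98. Of the kinases that restrain pyruvate dehydrogenase, Pdk3 was higher, at 1.24, and Pdk1, with 42.1 and 11.8 CPM, was lower, at -1.83, as was Pdk2. Mpc1 and Mpc2, which form the mitochondrial pyruvate carrier, were 85.3 and 110 CPM in Tn cells and 96.9 and 87.2 CPM in cycling cells. Bsg, the chaperone of lactate transporters, was 178 and 216 CPM. Of 19 tested regulators, 2 were called higher and 2 lower, against 18.8% and 4.59% of all genes. Hif1a was 37.2 CPM in Tn and 82.3 CPM in cycling cells, at 1.14, and the kinase gene Akt1 was 58.3 and 123 CPM, at 1.07. Myc was lower, with 193 CPM in Tn and 76.3 CPM in cycling cells, at -1.34, as was Txnip, a brake on glucose uptake, with 363 and 121 CPM, at -1.58. Of 11 tested hypoxia targets outside glycolysis, only Mxi1, a partner gene of the Myc network, was called higher, at 1.92, 0 were called lower, and their median was 0.01, against 18.8%, 4.59% and 0.36 over all genes. With the TMM shift of 0.36 taken off, Gapdh, Pkm, Minpp1, Shmt1, Gfpt1, Pdk3, Hif1a and Akt1 stayed above 0 but below 2-fold.

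The share of cells with a UMI of each gene was compared after thinning each cell to 2500 UMIs, because cycling cells held more UMIs per cell. Tpi1 was seen in 16.1% of Tn (14.2 to 18.2) and 38.0% of cycling cells (35.8 to 40.2). Without thinning the shares were 41.2% and 79.7%. Ldha was seen in 74.4% of Tn and 84.3% of cycling cells, and Pgk1 in 32.6% and 44.2%. Gpi1 stayed at 60.0% and 60.1%, and Pfkp was seen most often in TIGIT+ Teff cells, at 39.0%, against 21.1% in Tn cells. As genes of other cell types, the macrophage gene Lyz2 was seen in 0.0745% of Tn and 1.40% of cycling cells. The plasma cell gene Igkc was seen in 0.522% and 6.59%, with up to 10.9% in TIM-3+ Tex cells. Both shares differed between clusters at equal depth, so they do not measure a common level of free RNA. Within each cluster the shares of Tpi1, Ldha, Pgk1, Gpi1 and Pfkp were above those of Lyz2 and Igkc. In GzmA+ Tex cells, however, Lyz2 was seen in 21.5%, near Tpi1 at 22.8%. Slc2a1 was seen more often than Igkc in Tn (5.66% against 0.522%) and Tcm cells (6.96% against 0.527%). In the other clusters its shares, 5.78% to 10.7%, were in the range of Igkc there, 4.78% to 10.9%.

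Proliferation was then read within the Teff and Tex clusters, with the cycling cluster left out. Thinned to 2500 UMIs, 740 of their cells held at least 2 UMIs of the proliferation list, 427 of which held exactly 2, while 1397 held 1 and 2929 held none. Tpi1 was 126 CPM in the first set and 75.2 CPM in cells with none, a log2 ratio of 0.75 (0.52 to 0.97) that ranged from 0.40 to 1.26 between libraries. Pfkp was at 0.37 (0.17 to 0.56), higher in 3 of 4 libraries. Ldha was at 0.33 (0.23 to 0.42) and Pgk1 at 0.29 (0.10 to 0.46), both higher in 4 of 4 libraries. Aldoa was lower in 3 of 4 libraries, at -0.17 (-0.28 to -0.06), and Gpi1 (-0.06), Eno1 (0.01) and Pgam1 (0.07) had intervals that include 0. Gapdh at 0.19 and Pkm at 0.25 were higher in 4 of 4 libraries. The pooled clusters differed in their proliferation list (201 to 532 CPM), so single clusters were read too. Within transitory Teff cells Ldha was at 0.23 (0.04 to 0.41), higher in 4 of 4 libraries, but Tpi1 was at 0.40 (-0.12 to 0.90), with libraries from -1.88 to 0.82, Pgk1 at 0.16 (-0.20 to 0.51) and Pfkp at -0.29 (-0.77 to 0.16). Within TIM-3+ Tex cells Ldha was at 0.35 (0.15 to 0.54), higher in 4 of 4 libraries, Tpi1 at 0.58 (0.08 to 1.06), Pgk1 at -0.06 (-0.54 to 0.40) and Pfkp at 0.23 (-0.32 to 0.75). Of these 4 genes only Ldha kept its direction in each library within both clusters, and the part of cluster makeup in the pooled ratios was not tested. These sets are ranges of a count per cell, not cell types.

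**Figure D4:**
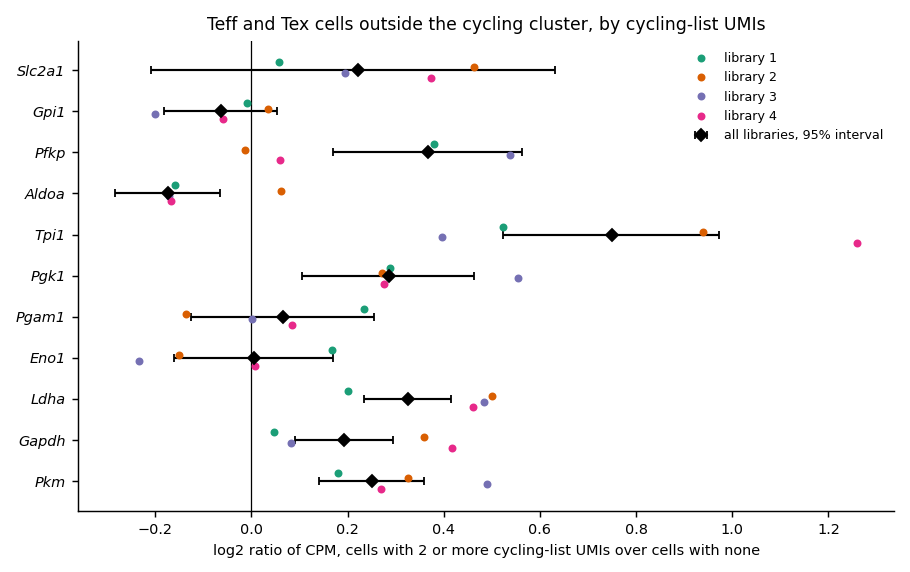
Log2 ratio of CPM between Teff and Tex cells with at least 2 UMIs of the proliferation list and those with none, after thinning to 2500 UMIs per cell, for the glycolysis genes other than Hk2 and for Gapdh and Pkm. Diamonds are ratios over all libraries with 95% counting intervals and points are libraries. Tpi1 has the highest ratio at 0.75, and Ldha and Pgk1 lie above 0 in 4 of 4 libraries.

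The resemblance between members was described by Pearson's r over the 32 groups of 1 cluster and library, which share libraries and depth. Tpi1 and Ldha (0.89), Pgk1 and Ldha (0.88) and Tpi1 and Pgk1 (0.76) were the closest of 45 pairs, whereas Pfkp and Eno1 were the farthest at -0.32. Only 6 pairs were above 0.5 and 16 were below 0. By Spearman's rho Pgk1 and Ldha (0.77) and Tpi1 and Ldha (0.71) were still the closest. Tpi1 and Pgk1 (0.42) then stood below other pairs, such as Gpi1 and Aldoa (0.64). Among 4077 genes with at least 50 CPM in a cluster, the non-members most like the summed members were Pkm (0.92), Prelid3b (0.92), Sec13 (0.90), Psmb5 (0.90), Vdac3 (0.90), Ccdc124 (0.90), Ybx1 (0.90), Snrpa1 (0.89), Eif4e (0.89) and Ube2n (0.89). Pkm catalyses the step before lactate dehydrogenase, Psmb5 is a proteasome subunit and Eif4e binds the mRNA cap. By Spearman's rho, 2 of these were again among the first 10. Of the members with at least 50 CPM in a cluster, Ldha had the highest r with the sum (0.96) and Pfkp the lowest (0.06). Likeness to the sum is thus largely likeness to Ldha, not to each of the 10 genes.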

How the data were processed

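Gene expression was measured by 10x 5′ single-cell RNA sequencing in 4 libraries, each of CD8+ T cells pooled from 5 mice. The deposited table holds raw UMI counts per Ensembl gene and cell. The authors made it with Cell Ranger (version 7.00 and build mm10 in the submitters' processing notes), downsampled reads to even depth, kept cells by UMI number, mitochondrial share and Cd3 and Cd8a RNA, and clustered them with Monocle3. The mitochondrial fraction per cell and the cluster names are as deposited by the authors, and clone sizes came from their TCR table. Doublets were not removed. Symbols came from the mouse reference table for 17534 of 17561 genes.

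UMIs were summed per cluster and library and divided by all UMIs of those cells (CPM). Levels have exact Poisson, ratios conditional binomial and shares Clopper-Pearson intervals at 95%. They cover counting error only. A gene was called at 2-fold over all libraries with the same direction in each library, among genes with at least 100 UMIs. With 1 library per treatment and no map from library number to treatment, no p-value was computed. All 10 members are described. Other listed genes are named at 50 CPM or more in a cluster, as are annotated copies of a member and the 10 genes most like the summed members by Pearson's r over log2(CPM + 10). Members and lists were chosen with earlier results of these data known. Cells were thinned with seed 7. Python 3.11.15, numpy 2.4.6, scipy 1.17.1, pandas 2.3.3, matplotlib 3.10.9 and R 4.3.3 with edgeR 4.0.16 (TMM factors only) were used, and the scripts were tested on simulated data. Promoters came from RefSeq (GRCm38.p6). Alternatives were other scalings, cell filters, cluster numbers, a 1.5-fold call and leaving out each library. Leaving out GzmA+ Tex and leaving out cells with a proliferation-list UMI outside the cycling cluster were added after the data were seen.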

Additional observations from a re-analysis of the deposited data

How the results depend on the processing

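Of 86 counts of members past the 2-fold call recomputed under alternatives, 78 equalled the main count. The main count was only 0 or 1 in each comparison, so an equal count says little about single ratios. In cycling over Tn cells the count of 1 became 2 in the 3054 cells with no UMI of the other cell type lists, which added Pfkp just past 2-fold, and 2 in the 7961 cells with a called TCR, which added Ldha at 1.01. With a 1.5-fold call the counts were 4 in cycling over Tn, 1 in Teff and Tex over Tn, 1 in Tcm over Tn, 3 in cycling over Teff and Tex and 1 in TIGIT+ over transitory Teff, since the looser call admits smaller ratios. Hk2, whose share of cells was as low as that of S100a8, was the 1 in Teff and Tex over Tn, at 0.76. It was also among the 4 in cycling over Tn, at 0.62. The share of all genes past a 1.5-fold call was not computed, so these counts have no background beside them. Leaving out each library in turn gave 0 to 1 in Teff and Tex over Tn, where Hk2, with 335 UMIs in all, passed at 1.06 without library 3. Of the recomputed ratios 575 stayed within the counting interval of the main ratio over all libraries and 305 fell outside it. The spread between libraries was not used for this split. Hk2 and the groups of few cells are limited by depth. The ratios over all libraries sum UMIs before the ratio is taken, so they compare clusters with unlike shares of the libraries. Libraries 1 to 4 gave 436, 50, 271 and 59 TIGIT+ Teff cells, but 568, 473, 198 and 652 transitory Teff cells. Only the ratios by library set clusters of the same library side by side. The clusters were made from the same counts, so no paired test was run. The ratios within each library stand beside the pooled ones instead.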

Other observations

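Clone size was compared within clusters, between cells of clones with more than 5 cells and cells whose clone was seen once. In cycling cells (608 and 248 cells) Ldha was 1196 CPM in expanded and 1025 CPM in single clones, a log2 ratio of 0.22 (0.16 to 0.28) that was higher in 4 of 4 libraries. Tpi1 was at 0.13 (0.01 to 0.24), with libraries from -0.40 to 0.42. The proliferation list was 4154 CPM in the expanded and 3842 CPM in the single clones, and its part in the Ldha ratio was not tested. In transitory Teff cells (866 and 368 cells) the interval of each of the 10 genes included 0, and the sum of the members was at -0.03 (-0.07 to 0.02).

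Several members have near-identical annotated copies. Of the 50-base windows of each gene's transcripts, 68.0% of those of Pgk1 also occur in another gene, mostly Pgk1-rs7, as do 49.5% for Eno1, mostly Eno1b, and 41.5% for Pgam1, with Pgam1-ps2. The values were 18.6% for Gpi1, 10.4% for Ldha, 8.46% for Aldoa and 6.83% for Tpi1, and no window of Slc2a1, Hk2 or Pfkp occurred elsewhere. Eno1b had 2128 UMIs, with 14.8 to 24.4 CPM per cluster, and Aldoart1 had 3 UMIs. None of the genes that share windows with Pgk1 or Pgam1 was in the expression table. The windows cover whole transcripts, whereas the libraries were made from 5′ ends, so these percentages do not measure the share of reads affected. How reads that match a copy were counted is not given in the sources used here, and the levels of Pgk1, Eno1 and Pgam1 are uncertain for that reason.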
